A study of Mus musculus with 14 samples.

Results

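The aryl hydrocarbon receptor (AHR) pathway was followed through 6 genes in primary bone marrow-derived macrophages (pBMDMs): Ahr, Arnt, Ahrr, Cyp1a1, Cyp1b1 and Tiparp. They were taken by gene symbol from a table of 55414 genes and were chosen from knowledge of the pathway with results on these same libraries already known, so their values, fold changes and calls are given as a description, without p-values. The libraries came from wildtype mouse pBMDMs of C57BL/6N background. Every group was exposed for 24 h. In 4 groups the macrophages were given filtered supernatant of Pfa1 cells, a mouse embryonic fibroblast line in which 4-hydroxytamoxifen (4OHT) deletes Gpx4 and thereby triggers ferroptosis, an iron-dependent death by lipid peroxidation. The supernatants came from untreated cells (ctrl, n = 3), cells given the ferroptosis inhibitor ferrostatin-1 (Fer1, n = 3), cells given 4OHT together with ferrostatin-1 (Tam Fer1, n = 3) and cells given 4OHT alone (Tam, n = 3), of which the Tam supernatant is the ferroptotic one. Fresh medium was the remaining group (medium ctrl, n = 2, replicate numbers 1 and 2). Gpx4 was deleted in the donor fibroblasts and not in the macrophages, so these libraries hold no check of the deletion, and 4OHT had been given to the donors of both the Tam and the Tam Fer1 supernatants. The mice were young, some weeks old by the study's description.

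AHR is a ligand-activated transcription factor that is held in the cytoplasm by chaperones. On binding a planar aromatic ligand or a tryptophan metabolite it moves to the nucleus, pairs with ARNT and binds a short DNA motif, the xenobiotic response element. Its classical targets include Cyp1a1 and Cyp1b1, which encode monooxygenases that break down its ligands, and 2 genes whose products restrain it, Ahrr and Tiparp. In macrophages AHR is known as a modifier of inflammatory gene expression.

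The DNA just upstream of these genes is shown because the motif that AHR and ARNT bind is part of what defines a target. The RefSeq promoter table for the GRCm38.p6 build held 5 of the 6 genes. The 250 bases before the annotated start are printed for the 4 classical target genes, 5′ to 3′ on the strand of the gene, with each match to the motif core GCGTG, or to its reverse complement CACGC, in capitals.
Ahrr, chr13:74292332-74292581, minus strand: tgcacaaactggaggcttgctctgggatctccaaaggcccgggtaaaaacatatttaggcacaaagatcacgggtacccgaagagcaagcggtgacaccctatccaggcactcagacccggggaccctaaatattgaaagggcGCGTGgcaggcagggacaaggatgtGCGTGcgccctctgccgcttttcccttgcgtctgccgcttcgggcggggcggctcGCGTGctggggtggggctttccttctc
Tiparp, chr3:65528197-65528446, plus strand: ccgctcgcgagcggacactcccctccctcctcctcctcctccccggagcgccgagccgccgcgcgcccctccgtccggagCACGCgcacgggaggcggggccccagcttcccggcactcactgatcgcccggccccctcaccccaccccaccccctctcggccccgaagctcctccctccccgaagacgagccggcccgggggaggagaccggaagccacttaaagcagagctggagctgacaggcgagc
Cyp1a1, chr9:57697363-57697612, plus strand: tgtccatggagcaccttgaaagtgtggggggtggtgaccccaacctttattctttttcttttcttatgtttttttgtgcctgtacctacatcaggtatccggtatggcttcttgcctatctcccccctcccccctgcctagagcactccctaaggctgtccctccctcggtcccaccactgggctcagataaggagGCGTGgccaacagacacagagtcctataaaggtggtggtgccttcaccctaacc
Cyp1b1, chr17:79715062-79715311, minus strand: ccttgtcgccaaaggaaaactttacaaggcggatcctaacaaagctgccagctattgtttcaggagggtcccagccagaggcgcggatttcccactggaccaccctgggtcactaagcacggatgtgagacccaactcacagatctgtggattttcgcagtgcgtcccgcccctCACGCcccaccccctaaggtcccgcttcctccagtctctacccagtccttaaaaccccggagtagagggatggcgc
In Ahrr, 3 matches lay on the gene's own strand, their first bases 107, 82 and 27 bases before the start. Tiparp had 1 match on the opposite strand, 170 bases before the start. Cyp1a1 had 1 on its own strand at 54 bases, and Cyp1b1 had 1 on the opposite strand at 76 bases. Arnt, which is not usually listed as an AHR target, had 1 match at 29 bases. Over all 32851 promoters of the same length in the table, 28.2% held at least 1 match on either strand and 2.77% held at least 3. The longer form TNGCGTG, or its reverse complement CACGCNA, occurred in 4.1% of promoters and, of these 5 genes, in Ahrr alone, where it overlaps the match nearest to the start. The core overlaps the CGTG core of the motif used by hypoxia-inducible factors, which also pair with ARNT, and a match in these letters is no evidence of binding. The start that RefSeq gives for Cyp1a1 lies inside the longer gene model described for that gene further on.

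**Figure D1:**
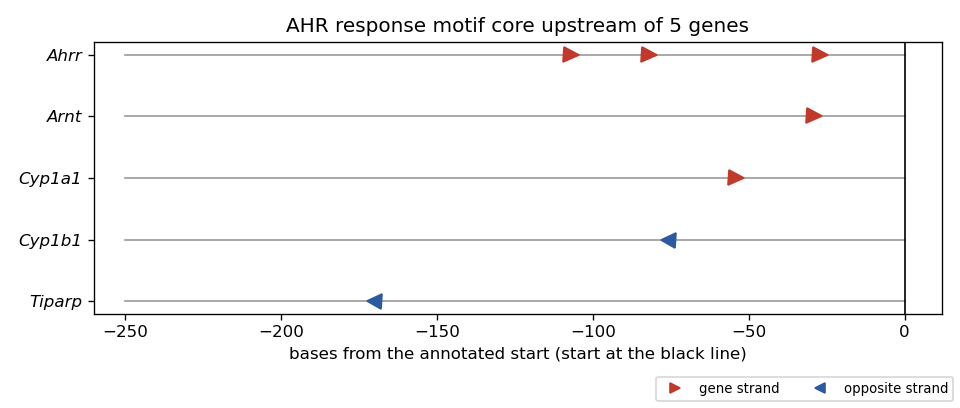
Positions of the AHR response motif core in the 250 bases upstream of 5 genes; the x axis is the distance in bases from the annotated start, each triangle is 1 match and its direction and colour give the strand. Ahrr holds 3 matches and the other genes 1 each.

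The macrophage identity of the libraries was checked first. All 7 macrophage markers (Adgre1, Itgam, Csf1r, Cd68, Lyz2, Mertk and Fcgr1) passed the filter on low counts, and their summed level was 18650 to 43692 CPM, the count scaled to a common library size, over the 14 libraries. This sum was 18650 to 27615 CPM in ctrl, 21379 to 27579 CPM in Fer1 and 22242 to 28793 CPM in Tam Fer1. In Tam it was 27958 to 43692 CPM, above every ctrl library, and in medium ctrl 27335 to 34101 CPM. The part of this difference in the values below was not tested. Of the 10 fibroblast markers 4 passed, with sums of 15.5 to 121 CPM, and of the 8 neutrophil and precursor markers 3 passed, with sums of 2.87 to 48.7 CPM; Ly6g and Elane were at 0 in every library. None of the 5 dendritic cell, 5 lymphocyte or 4 mast cell markers passed. Total counts were 7823051 to 11052352 per library, and 12851 genes were tested. In bulk RNA, fewer cells of a type and less RNA per cell cannot be told apart.

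Ahrr, which encodes the AHR repressor, a protein that competes with AHR for ARNT and for the response element, was the 1 member called in any comparison. Its gene model (ENSMUSG00000021575) covers chr13:74211118-74292331 on the minus strand of GRCm38 and overlaps no other annotated gene. In ctrl libraries 1, 2 and 3 it stood at 4.15, 3.82 and 39.3 CPM, from 41, 38 and 356 counts. In Fer1 libraries it stood at 6.45, 2.09 and 26.5 CPM, and in Tam Fer1 libraries at 4.39, 3.82 and 35.0 CPM. In these 3 groups the library numbered 3 was far above the other 2. In Tam libraries it stood at 28.9, 22.8 and 52.1 CPM, and in medium ctrl libraries at 23.7 and 26.4 CPM. Tam and medium ctrl therefore lay together well above libraries 1 and 2 of the other supernatants, while the ranges of all neighbouring groups in the order of means overlapped (Tam, medium ctrl, ctrl, Tam Fer1, Fer1).

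Within each replicate number Ahrr was higher in Tam than in any of the other 3 supernatants, in 3 of 3 numbers each time. Against ctrl the ratio of CPM was 6.95, 5.98 and 1.33 for numbers 1, 2 and 3. Against Tam Fer1 it was 6.57, 5.98 and 1.49. Against Fer1 it was 4.48, 10.95 and 1.96. The ratio was smallest for number 3 in every case, the number whose Ahrr level was already high without the ferroptotic supernatant. Between ctrl and medium ctrl, Ahrr was lower in ctrl in both numbers that exist in both groups, at 0.175 and 0.145 times the medium level. Tam and medium ctrl differed by a ratio of 1.22 for number 1 and 0.867 for number 2, in opposite directions.

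**Figure D2:**
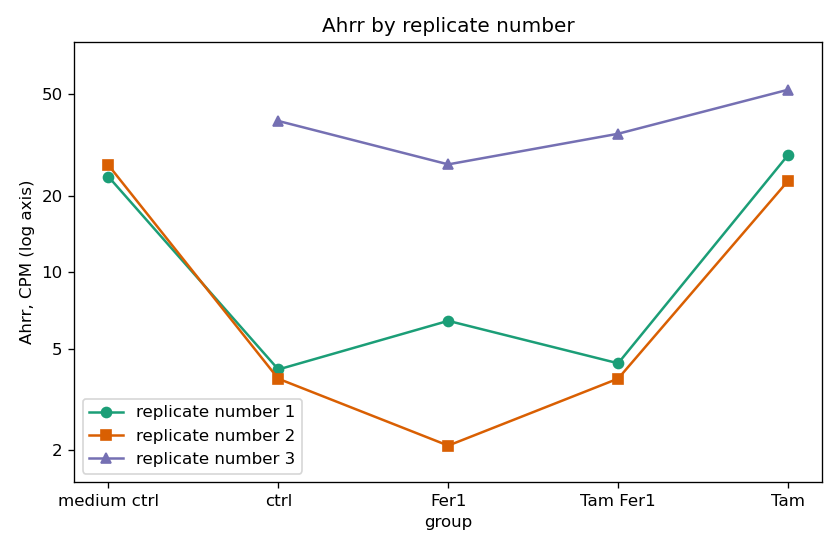
Ahrr in CPM (log axis) in the 5 groups, with 1 line and marker shape for each replicate number; number 3 has no medium ctrl library. Numbers 1 and 2 lie between 2.09 and 6.45 CPM in ctrl, Fer1 and Tam Fer1 and between 22.8 and 28.9 CPM in Tam and medium ctrl, whereas number 3 lies between 26.5 and 52.1 CPM in the 4 supernatant groups.

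A gene was called when edgeR's quasi-likelihood fit, with the replicate number as a block, gave a log2 fold change beyond 1 in size and an adjusted p under 0.05. In Tam against ctrl, 1 of the 5 members past the count filter was called, Ahrr, where 1.11% of all genes tested were called; its log2 fold change was 1.97 (SE 0.436), a fold of 3.91. In Tam against Tam Fer1, Ahrr was again the 1 member called, beside 1.03% of all genes, with a log2 fold change of 2.03 (SE 0.437). In Tam against Fer1 the value was 2.21 (SE 0.439), beside 1.02% of all genes. These 3 comparisons share the Tam libraries. In ctrl against medium ctrl, where 7.79% of all genes were called, Ahrr was called lower in ctrl, with a log2 fold change of -2.33 (SE 0.487). In Tam against medium ctrl, where 3.07% of genes were called, Ahrr was not called, at -0.36 (SE 0.451).

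The comparisons among the non-ferroptotic supernatants gave Ahrr values within 1 SE of 0. They were -0.06 (SE 0.434) for Tam Fer1 against ctrl, -0.24 (SE 0.439) for Fer1 against ctrl and 0.18 (SE 0.441) for Tam Fer1 against Fer1. Among all genes, 0.0311%, 0% and 0.0233% were called in these comparisons. For Fer1 against ctrl edgeR called 0 genes, 146 had an unadjusted p under 0.05 and DESeq2 called 3. The difference between the 4OHT effect without and with ferrostatin-1 was 1.79 (SE 0.618) on the log2 scale for Ahrr and was not called, where 0.0311% of genes were.

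The Ahrr calls depended on the block and on which libraries were in the fit. A fit with no block gave a log2 fold change of 1.14 in Tam against ctrl and of -0.67 in ctrl against medium ctrl, and none of the 4 calls remained. Over all genes, that fit called 6 in Tam against ctrl and 457 in ctrl against medium ctrl, beside 143 and 1001 with the block. When 1 library or 1 replicate number was left out at a time, the Tam against ctrl value stayed between 1.60 and 2.67 and lost its call in 6 of 9 fits, namely without number 1 or number 2 as a whole and without any single ctrl or Tam library of those numbers. Most other calls were lost in these fits too. Over all genes, 18 were called in Tam against ctrl without ctrl library 1 and 27 without ctrl library 2. Without Tam library 1 or Tam library 2, 30 and 44 were called, beside 143 in the full fit. The summed neutrophil and precursor markers also moved with the replicate number and with the group. They were 2.87 to 4.91 CPM in the 4 supernatant libraries numbered 3. In numbers 1 and 2 they were 8.16 to 16.6 CPM in ctrl, Fer1 and Tam Fer1, and 25.5 and 21.4 CPM in Tam. They were 35.2 and 48.7 CPM in medium ctrl, where Ahrr was high as in Tam. Their part in the Ahrr values was not tested.

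**Figure D3:**
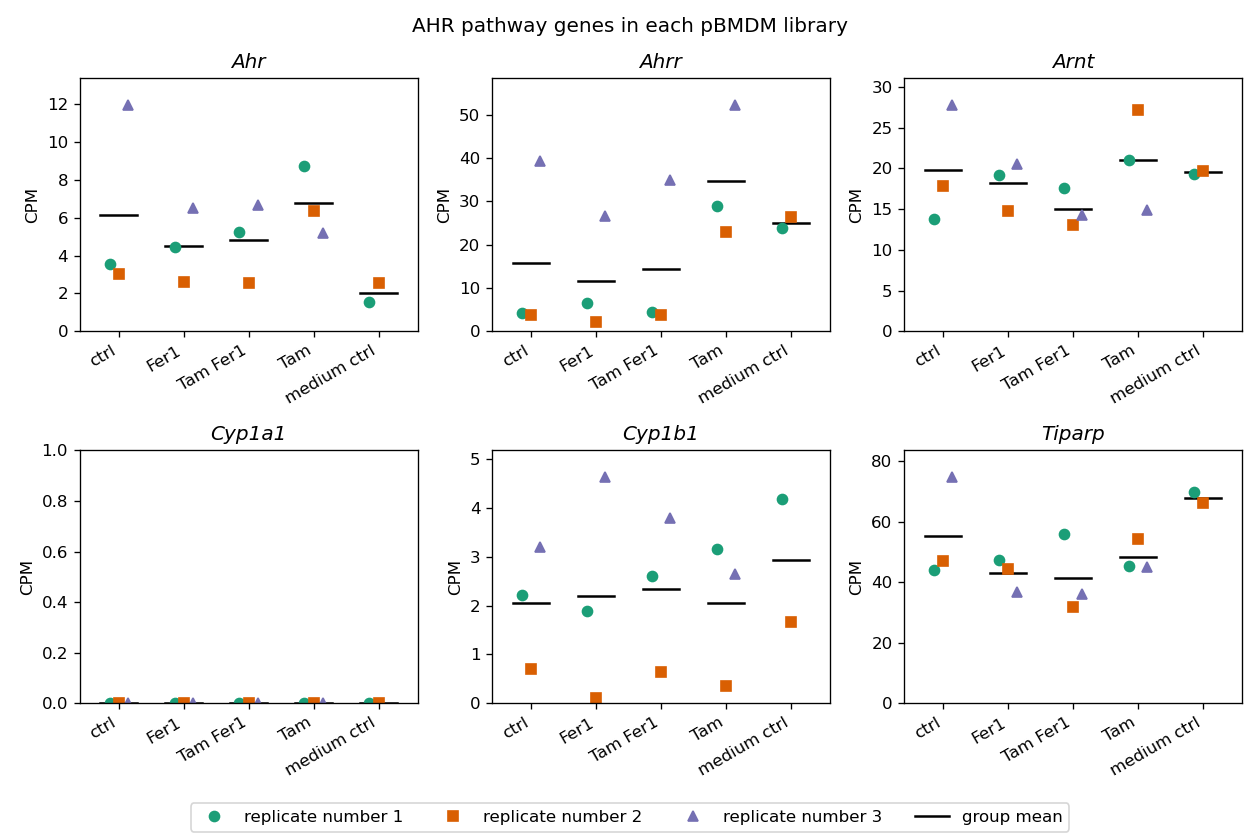
CPM of the 6 AHR pathway genes in each library, with 1 panel per gene and 1 y axis per panel; marker shape and colour give the replicate number and the black line is the group mean. Number 3 is the highest for Ahrr in every supernatant group, and number 2 is the lowest for Cyp1b1 in every group. Cyp1a1 is at 0 in all 14 libraries, and Tiparp is highest on average in medium ctrl.

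Tiparp encodes a mono-ADP-ribosyltransferase that modifies AHR and lowers its activity. The gene (ENSMUSG00000034640) covers chr3:65528410-65555518 on the plus strand and overlaps 4931440P22Rik on the opposite strand; whether strand was used in counting is not given in the sources used here. It stood at 43.9, 46.9 and 74.5 CPM in ctrl, at 47.4, 44.3 and 36.9 CPM in Fer1 and at 55.9, 31.9 and 36.0 CPM in Tam Fer1. Tam libraries had 45.4, 54.4 and 44.9 CPM and medium ctrl libraries 69.8 and 66.0 CPM. Apart from ctrl library 3, every supernatant library was below both medium libraries, and the 4 supernatant groups overlapped. The fitted log2 fold change was -0.19 (SE 0.242) in Tam against ctrl, -0.31 (SE 0.279) in ctrl against medium ctrl and -0.49 (SE 0.273) in Tam against medium ctrl, none of them called. Against Tam Fer1 and Fer1 the Tam values were 0.24 (SE 0.243) and 0.18 (SE 0.242), so the 3 differences between ferroptotic and other supernatants were no larger than their SE.

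Cyp1a1, the inducible monooxygenase that serves as the usual readout of AHR activity, had 0 counts in all 14 libraries. The gene (ENSMUSG00000032315) covers chr9:57687928-57703824 on the plus strand. A count of 0 allows up to 3 counts in a library, which is 0.272 to 0.381 CPM at these depths, so Cyp1a1 was not detectable in any group and no fold change can be given. These limits cover counting error only.

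Cyp1b1, the related monooxygenase, was near the limit of detection in the supernatant libraries numbered 2, with 1 to 7 counts, and had 15 to 42 counts in the other 10 libraries. The gene (ENSMUSG00000024087) covers chr17:79701537-79715061 on the minus strand. It stood at 2.23, 0.704 and 3.20 CPM in ctrl, at 1.88, 0.104 and 4.63 CPM in Fer1 and at 2.61, 0.637 and 3.79 CPM in Tam Fer1. Tam libraries had 3.16, 0.363 and 2.66 CPM and medium ctrl libraries 4.19 and 1.67 CPM. In each of the 5 groups the library numbered 2 was the lowest. The log2 fold change was -0.05 (SE 0.475) in Tam against ctrl and -0.20 (SE 0.475) in Tam against Tam Fer1. It was -1.22 (SE 0.539) in ctrl against medium ctrl and -1.27 (SE 0.534) in Tam against medium ctrl, beyond 1 in size but not called.

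Fibroblast markers moved with Cyp1b1. Their summed level was 15.5 to 34.0 CPM in the 5 libraries numbered 2 and 45.1 to 121 CPM in the other 9. Over the 14 libraries, which share 3 replicate numbers, Cyp1b1 followed this sum with Pearson's r = 0.897 on the log2 scale and Spearman's rho = 0.846, given as a description. The genes most like Cyp1b1 over the 14 libraries were Col12a1 (r = 0.948), a collagen gene, Cald1 (r = 0.936) and Ncam1 (r = 0.932). With each replicate number's mean taken out, none of these 3 was among the most like, which were then Tmem191c (r = 0.903), Treml1 (r = 0.901) and Abhd15 (r = 0.856). The fibroblast markers' part in the Cyp1b1 values was not tested. In the medium ctrl libraries, which received no supernatant, the marker sums were 34.0 and 104 CPM. The source of the fibroblast marker counts was not tested.

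**Figure D4:**
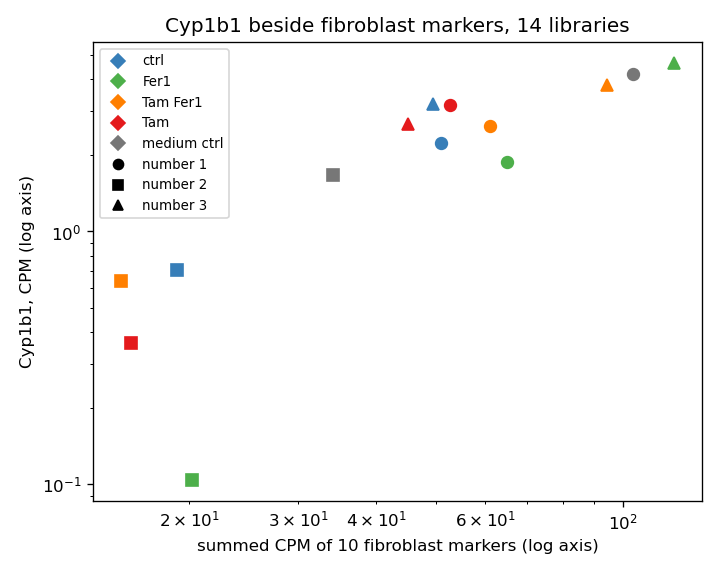
Cyp1b1 in CPM against the summed CPM of the 10 fibroblast markers in 14 libraries, both on log axes; colour gives the group and marker shape the replicate number. The 5 libraries numbered 2 lie at the lower left, at 15.5 to 34.0 CPM of markers and 0.104 to 1.67 CPM of Cyp1b1.

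Ahr itself was lowest in medium ctrl. The receptor gene (ENSMUSG00000019256) covers chr12:35497974-35535038 on the minus strand and overlaps Gm48236 on the opposite strand. It stood at 3.55, 3.02 and 11.9 CPM in ctrl, at 4.46, 2.61 and 6.50 CPM in Fer1 and at 5.23, 2.55 and 6.66 CPM in Tam Fer1. Tam libraries had 8.75, 6.35 and 5.19 CPM and medium ctrl libraries 1.52 and 2.56 CPM. All ctrl, Fer1 and Tam libraries were above both medium libraries, whereas 1 Tam Fer1 library, at 2.55 CPM, was just below the higher of them. The log2 fold change was 1.47 (SE 0.536) in Tam against medium ctrl and 1.08 (SE 0.556) in ctrl against medium ctrl, neither of them called. Against ctrl, Tam was higher for numbers 1 and 2, by ratios of 2.47 and 2.10, and lower for number 3, at 0.435 times ctrl. The fitted value was 0.39 (SE 0.431), and it was 1.18 (SE 0.393) without number 3, not called either. The call in Tam against medium ctrl was gained in 3 alternatives, with values of 1.81 to 1.84: without number 3, without Tam library 3, and when only those groups were fitted.

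Arnt, the partner that AHR shares with hypoxia-inducible factors, differed little between neighbouring groups. The gene (ENSMUSG00000015522) covers chr3:95434388-95497240 on the plus strand and overlaps Gm42672 on the same strand. It stood at 13.8, 17.9 and 27.7 CPM in ctrl, 19.2, 14.7 and 20.5 CPM in Fer1, 17.6, 13.1 and 14.3 CPM in Tam Fer1, 21.1, 27.2 and 14.9 CPM in Tam, and 19.3 and 19.7 CPM in medium ctrl. Neighbouring groups in the order of means (Tam, ctrl, medium ctrl, Fer1, Tam Fer1) overlapped. The fitted log2 fold changes ran from -0.39 (SE 0.284) in Tam Fer1 against ctrl to 0.50 (SE 0.283) in Tam against Tam Fer1, none of them called. Within replicate numbers Arnt was higher in Tam than in Tam Fer1 in 3 of 3, by ratios of 1.20, 2.08 and 1.04, and lower in Tam Fer1 than in Fer1 in 3 of 3, at 0.913, 0.888 and 0.70 times. The Tam Fer1 libraries, at most 17.6 CPM, all lay below both medium ctrl libraries.

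**Figure D5:**
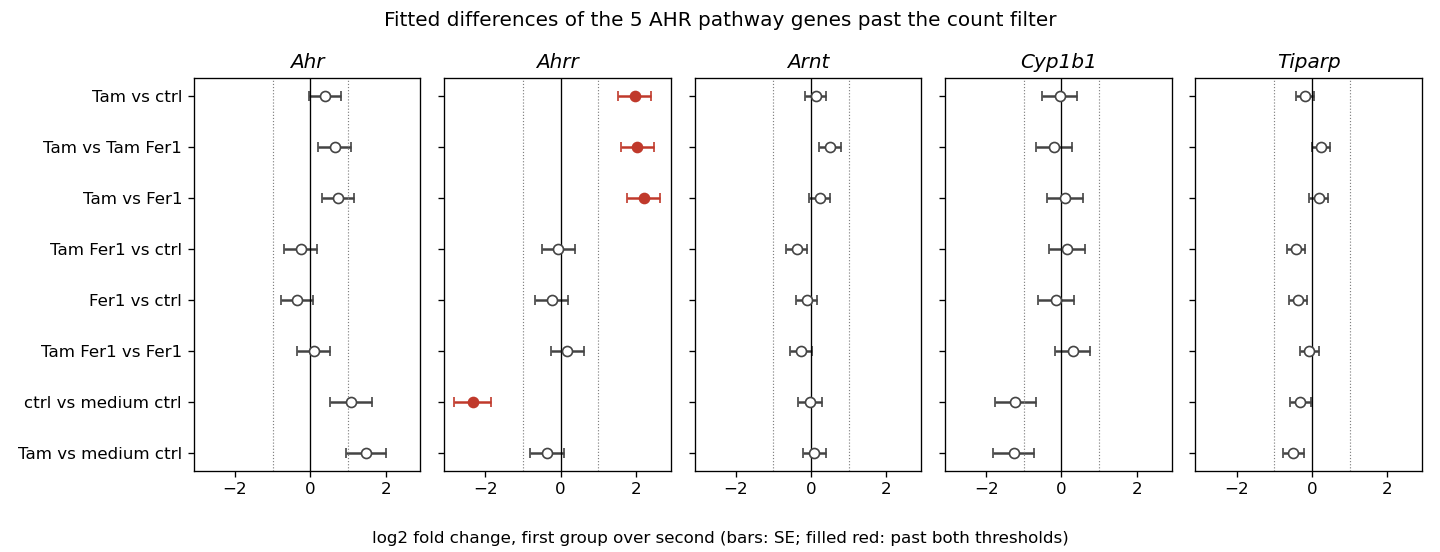
Fitted log2 fold changes (points) with their SE (bars) of the 5 AHR pathway genes past the count filter in 8 comparisons, the first group over the second; dotted lines mark a log2 fold change of 1 in either direction. Filled red points were called, and all 4 of them are Ahrr, from -2.33 in ctrl against medium ctrl to 2.21 in Tam against Fer1.

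The genes whose log2 CPM was most like Ahrr over the 14 libraries were Jaml (r = 0.973), Clec4a2 (r = 0.972) and Baiap2 (r = 0.971). Jaml, which encodes a junctional adhesion molecule of leukocytes, stood at 1.52, 0.603 and 15.1 CPM in ctrl and at 16.5, 12.3 and 19.0 CPM in Tam. It was picked for its likeness to Ahrr, so the high value of number 3 that they share is no separate result. For Ahr the most like were Tnnc1 (r = 0.915), Lrp6 (r = 0.910) and Lpin1 (r = 0.907). For Arnt they were Prkar1a (r = 0.928), Nfya (r = 0.926) and Ldb1 (r = 0.922), and for Tiparp they were Arntl (r = 0.931), Evi2 (r = 0.928) and Pparg (r = 0.923). The members were less alike among themselves, with r from -0.01 for Ahr and Tiparp to 0.65 for Arnt and Tiparp. With each replicate number's mean taken out, 2 of the 3 named genes stayed for Ahrr (Jaml and Baiap2) and 2 for Arnt (Nfya and Ldb1), and 0 for Ahr and Tiparp. These correlations describe 14 libraries that share groups and replicate numbers.

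Beyond the 6 members, 58 genes linked to AHR were examined in 3 lists. The lists too were chosen with earlier results of these data known, so their p-values are given as a description. Of 21 partners and chaperones 16 were tested, of 21 other target genes 12, and of 16 genes of tryptophan and AHR ligand metabolism 10. Among the remainder, Ido1, Cyp1a2, Cyp2s1, Areg, Gsta1, Gsta2, Ugt1a6b, Aadat, Hif3a and Sim1 had 0 counts in every library. In Tam against ctrl, edgeR called 0 of the 38 tested genes; 6 had an unadjusted p under 0.05, as had 10.8% of all genes tested, and DESeq2 called 0. The median log2 fold change of the 38 was 0.15, beside 0.01 over all genes tested. Against Tam Fer1 edgeR also called 0, with 5 at an unadjusted p under 0.05 (11.8% of all genes) and a median of 0.33, and DESeq2 called 1, Nqo1, a quinone reductase. Against Fer1 edgeR and DESeq2 called 0, with 4 at an unadjusted p under 0.05 (9.96% of all genes) and a median of 0.14.

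Among other target genes Nqo1 gave a log2 fold change of 1.82 (SE 0.531, edgeR adjusted p = 0.155) in Tam against Tam Fer1, not called in the full edgeR fit. It was called by edgeR without the count filter, and with that filter when Tam library 3 was left out. Nqo1 stood at 4.74 to 6.33 CPM in Tam and 0.523 to 3.69 CPM in Tam Fer1. In Fer1 it stood at 2.28 to 4.63 CPM, and in ctrl at 1.22 to 9.28 CPM, a range that spans the Tam libraries. Entpd1 had an adjusted p under 0.05 in Tam against each other supernatant in the edgeR fit. It encodes CD39, an enzyme that breaks down extracellular ATP, and covers chr19:40612366-40741602 on the plus strand, where it overlaps 3 annotated genes on the same strand. It stood at 36.7, 39.5 and 78.8 CPM in ctrl, at 40.8, 46.6 and 89.2 CPM in Tam Fer1 and at 81.7, 78.6 and 122 CPM in Tam. Number 3 was the highest in each of these groups, as it was for Ahrr. The log2 fold change was 0.93 (SE 0.148, edgeR adjusted p = 0.0128) against ctrl, 0.74 (SE 0.147, edgeR adjusted p = 0.0343) against Tam Fer1 and 0.96 (SE 0.148, edgeR adjusted p = 0.0111) against Fer1. Each is under the fold threshold. With no block the edgeR adjusted p was 0.652, 0.718 and 0.62, in the same order. Against ctrl it was 0.271 with only the groups compared. There it was also above 0.05 without number 1 or number 2, and without any single ctrl or Tam library of those numbers. It stayed under 0.05 without number 3. Entpd1 and Nqo1 were named after their values were seen, so their adjusted p-values are a description. In medium ctrl Entpd1 stood at 43.2 and 55.8 CPM, and Tam against medium ctrl gave 0.62 (SE 0.170, edgeR adjusted p = 0.0666).

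Compared with fresh medium, 4 of the 38 tested genes fell in ctrl and 0 rose, where 7.79% of all genes were called. Il4i1, an amino acid oxidase that makes AHR ligands from tryptophan, had the largest log2 fold change of the 4, at -2.96 (SE 0.570, edgeR adjusted p = 0.00528), with only 2 to 6 counts per ctrl library. It overlaps Nup62 on the same strand and Atf5 and Tbc1d17 on the opposite strand, so reads of these genes may be shared. Asb2, which encodes a ubiquitin ligase subunit and overlaps Gm15523 on the opposite strand, gave -2.74 (SE 0.528, edgeR adjusted p = 0.0053). Socs2, a suppressor of cytokine signalling, gave -1.88 (SE 0.435, edgeR adjusted p = 0.0156). Xdh, which encodes xanthine dehydrogenase and overlaps CT025731.2 on the same strand, stood at 233, 163 and 148 CPM in ctrl and at 491 and 367 CPM in medium ctrl, with a log2 fold change of -1.20 (SE 0.153, edgeR adjusted p = 0.000398). In Tam against medium ctrl, where 3.07% of all genes were called, 2 of the 38 were called. Asb2 and Xdh fell, by 2.51 (SE 0.504, edgeR adjusted p = 0.0155) and 1.03 (SE 0.155, edgeR adjusted p = 0.0041) on the log2 scale. The 4 genes were named because they were called lower in ctrl than in fresh medium, so sharing that direction with Ahrr is no separate result. Of Ahrr and these 4 genes, only Ahrr was called between Tam and ctrl. Whether that difference between genes exceeds the error was not tested. A fit without number 1 or without number 2 leaves 1 medium ctrl library, so only fold changes are given for these fits, in that order. In ctrl against medium ctrl they were -3.29 and -2.53 for Il4i1, -3.02 and -2.12 for Asb2, -1.82 and -1.92 for Socs2 and -1.24 and -1.23 for Xdh on the log2 scale. In Tam against medium ctrl they were -2.85 and -2.36 for Asb2 and -0.95 and -1.01 for Xdh.

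The partner and chaperone list held no call in any comparison in the full edgeR fit. In ctrl against medium ctrl edgeR called Arntl and Src lower in ctrl without number 3, without ctrl library 3 and with only the groups compared. Over all genes these fits called 1056, 1056 and 1323. Its 3 most abundant genes, Hsp90ab1, Hsp90aa1 and Ncoa3, gave log2 fold changes of -0.17 (SE 0.2002), -0.29 (SE 0.236) and -0.12 (SE 0.141) in Tam against ctrl. At an unadjusted p under 0.05 the list had 1 gene in Tam against ctrl, 1 in Tam against Tam Fer1 and 3 in ctrl against medium ctrl, of 16, where 10.8%, 11.8% and 24% of all genes did, and DESeq2 called Src in the last of these.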

How the data were processed

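RNA of pBMDMs was sequenced with 3′ end libraries (QuantSeq) by the study. The authors deposited expected counts per gene from STAR 2.7.10a and Salmon 1.5.2 per the labels; the notes there name both GRCh38 and GRCm38, the gene identifiers are mouse, and the counting strand is not given in the sources used here. A second deposited table with the authors' own comparisons, made with DESeq2 1.36.0 and fdrtool, holds fold changes, p-values and 14 per-sample CPM columns and was not used. Gene positions come from GENCODE for GRCm38.

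Expected counts of 55414 genes were rounded to whole numbers. Genes were filtered with filterByExpr (minimum count 10), leaving 12851. edgeR 4.0.16 (R 4.3.3) fitted all 14 samples with TMM scaling, group and replicate number as a block, and tested by quasi-likelihood with Benjamini-Hochberg adjustment; a call needed a log2 fold change beyond 1 and an adjusted p under 0.05. log2 CPM used a prior count of 2. Groups came from the sample titles. The study's design uses the mouse as a factor, and the replicate number was taken to mark the mouse. Deviations from group means correlated with a median r of 0.247 over 26 pairs with the same number and -0.14 over 52 pairs with another number. Deviations sum to 0 within a group, so the negative value is no separate support. A link by number also cannot tell the mouse from another batch that shares the number. Separate mice are not named in the labels, so p-values measure only the spread between these samples. The members and lists were chosen with earlier results of these data known. Named genes were the members, list genes called in any comparison or, in a list without calls, the 3 most abundant, and the 3 genes most like each member. Entpd1, Nqo1, Src, Kmo and, as a list gene, Arntl, and genes at 0, were named after their values were seen. The code was also run on simulated data. The replicate-number effects simulated there were far smaller than that of Ahrr in ctrl, so that run does not bear on the Ahrr values. Alternatives were DESeq2 1.42.0, RLE scaling, other filters, no block, only the groups compared, no fold threshold, and leaving out each library or number. Total counts were 7823051 to 11052352 per sample.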

Additional observations from a re-analysis of the deposited data

How the results depend on the processing

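All 4 Ahrr calls kept their direction and their call under DESeq2, RLE scaling, no filter and a stricter filter. With no replicate block, the pairing by number was lost and no Ahrr call was left: the log2 fold change was 1.14 in Tam against ctrl, 1.26 against Tam Fer1, 1.57 against Fer1, -0.67 in ctrl against medium ctrl, 0.46 in Tam against medium ctrl and 0.83 for the difference of the 4OHT effects. With no replicate block, 6 genes were called in Tam against ctrl, 18 against Tam Fer1, 7 against Fer1, 1 in Tam Fer1 against ctrl, 1 in Tam Fer1 against Fer1, 457 in ctrl against medium ctrl, 97 in Tam against medium ctrl and 0 for the difference of the 4OHT effects. Il4i1 in ctrl against medium ctrl also lost its call with no block, at -2.43. The counts with the replicate block were 143, 132, 131, 4, 3, 1001, 394 and 4. With only the groups compared, which leaves fewer samples, Ahrr lost its call in Tam against ctrl (1.88) and against Tam Fer1 (1.90), and genes called were 0 in Tam against ctrl, 37 against Tam Fer1, 0 in Tam Fer1 against ctrl, 0 in Tam Fer1 against Fer1, 667 in Tam against medium ctrl and 2 for the difference of the 4OHT effects. That setting gave 7 wider-list genes in ctrl against medium ctrl, beside 1323 of all genes, and 4 in Tam against medium ctrl, beside 667.

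DESeq2 called 276 genes in Tam against ctrl, 247 against Tam Fer1, 251 against Fer1, 14 in Tam Fer1 against ctrl, 3 in Fer1 against ctrl, 9 in Tam Fer1 against Fer1 and 76 for the difference of the 4OHT effects, and 1 wider-list gene in Tam against Tam Fer1. Without a filter on low counts the numbers were 259, 230, 240, 9 in Tam Fer1 against ctrl, 9 in Tam Fer1 against Fer1 and 32 for the difference. That setting gave 1 wider-list gene in Tam against Tam Fer1 and 1 in Tam against medium ctrl, the latter beside 505 of all genes. The cause of these changes was not tested.

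Leaving out 1 library or 1 replicate number at a time gave 0 to 191 genes called in Tam against ctrl, 0 to 282 against Tam Fer1, 0 to 185 against Fer1, 0 to 5 in Tam Fer1 against ctrl, 0 to 1 in Fer1 against ctrl, 0 to 2 in Tam Fer1 against Fer1, 87 to 1056 in ctrl against medium ctrl, 0 to 492 in Tam against medium ctrl and 0 to 31 for the difference of the 4OHT effects. For the wider list these fits gave 0 to 2 genes in Tam against ctrl (Entpd1 and Kmo without number 3), 0 to 1 against Tam Fer1, 0 to 1 against Fer1, 0 to 6 in ctrl against medium ctrl and 0 to 3 in Tam against medium ctrl. The Ahrr log2 fold change stayed between 1.60 and 2.67 in Tam against ctrl, 1.70 and 2.66 against Tam Fer1, 1.70 and 2.78 against Fer1 and -2.67 and -1.88 in ctrl against medium ctrl, with the call lost in 6, 7 and 7 of 9 and 4 of 8 fits. It ran from -0.39 to 0.44 in Tam Fer1 against ctrl, -0.62 to 0.24 in Fer1 against ctrl, -0.14 to 0.51 in Tam Fer1 against Fer1, -0.82 to 0.015 in Tam against medium ctrl and 1.08 to 2.71 for the difference of the 4OHT effects.

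The longer motif TNGCGTG was found in 4.1% of promoters, against 28.2% for GCGTG. Among 139 alternatives for each other member, Ahr was called in 3 and Arnt, Cyp1b1 and Tiparp in 0. Depth limits what can be said of Cyp1a1, at 0 counts, and of Cyp1b1 in the supernatant libraries numbered 2.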
